A study of Mus musculus with 8 samples.

Results

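Chemokine receptors are the proteins with which a leukocyte reads the chemokine gradients that lead it from bone marrow and blood into tissue, and 9 of their genes were followed here through the leukocytes of the mouse brain: *Ccr1*, *Ccr2*, *Ccr6*, *Ccr7*, *Ccr8*, *Ccr9*, *Cx3cr1*, *Cxcr3* and *Cxcr6*. They were chosen by gene symbol as receptors of cells recruited from the circulation, and all 9 were found among the 32285 genes of the matrices, of which 23092 had a count in the cells kept. The study sorted CD45.2-positive cells from the brains of mice perfused with saline and sequenced them as 8 droplet libraries, with 1 library per condition. WT libraries came from C57BL/6J mice and *App* libraries from *App* NL-G-F knock-in mice, whose amyloid precursor gene carries familial Alzheimer's disease mutations in every cell that uses it, so that plaques form without overexpression. Each genotype had a control library from mice that drank water, an acute colitis library (2% dextran sulfate sodium, DSS, in the drinking water for 1 week), a chronic colitis library (3 cycles of 2% DSS and water, of 5 days each) and a food allergy library (ovalbumin given with alum and then by mouth). The labels give an age of 16 weeks for every group. Per the methods, each sample was marked with a hashtag antibody before pooling. The mice given per group do not match the hashtags found in every library, so hashtags were not taken as mice. With 1 library per condition, a difference between treatments rests on single libraries and cannot be told apart from a difference between library preparations. An antibody against CD45 was given into the blood before perfusion to mark cells inside vessels, but that label is not part of the matrices, and cells of vessels, borders and tissue were therefore described together.

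These receptors are coupled to inhibitory G proteins and steer cells by polarising the cytoskeleton toward the ligand. Inflammatory receptors such as Ccr1 and Ccr2 draw myeloid cells into inflamed tissue, and Ccr2 also draws monocytes out of bone marrow. Ccr7, by contrast, leads naive lymphocytes and mature dendritic cells to lymphoid organs. Cxcr3 and Cxcr6 mark effector and tissue-resident lymphocytes, Ccr6 and Ccr9 are known from mucosal homing, Ccr8 from type 2 immunity, and Cx3cr1 from microglia, macrophages and patrolling monocytes.

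Between 4871 and 7199 cells were kept per library, 50121 in all, with 25614572 to 54618574 unique molecular identifiers (UMIs, 1 per captured RNA molecule) in those cells and a median of 2777 to 4130 UMIs per cell. Cells were assigned to 27 types by marker genes, none of them a receptor described here, and a type name below means cells that pass its markers (X-like). A type took 38376 cells (76.6%). Of the rest, 3789 cells (7.56%) passed markers of different lineages, 4833 (9.64%) passed none, and 3123 (6.23%) were T cells without a subset, which are missing from every T cell value below. The markers matched a sort of brain leukocytes with exceptions: 472 cells were erythroid, 225 were fibroblasts, and only 72 were microglia. Libraries shared 34 to 72 cell barcodes pairwise, at most 1.25% of the smaller library. Levels are given as CPM, the UMIs of the gene scaled to 1e+06 UMIs of the type in that library, and a type was compared over libraries where at least 50 of its cells were present in at least 6 libraries, which held for 16 of the 27 types.

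Free RNA gives some receptor UMIs to cells that do not make them. In erythroid cells, with a median of 8110 UMIs per cell, 0.212% to 2.12% of cells had a UMI of each receptor, and in fibroblasts (median 5802 UMIs) 0% to 4.44%. Shares at or below these were read as background.

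In GRCm38, the build of the matrices, 6 of the 9 are on chromosome 9: *Cx3cr1* (chr9:119901616-120069879, minus strand), *Ccr8* (chr9:120092114-120094906, plus strand), *Ccr9* (chr9:123678439-123784330, plus strand), *Cxcr6* (chr9:123806475-123811760, plus strand), *Ccr1* (chr9:123962124-123968692, minus strand) and *Ccr2* (chr9:124101950-124113557, plus strand). The gaps between neighbours were 22235 bases from *Cx3cr1* to *Ccr8*, 3583533 from *Ccr8* to *Ccr9*, 22145 from *Ccr9* to *Cxcr6*, 150364 from *Cxcr6* to *Ccr1* and 133258 from *Ccr1* to *Ccr2*. *Ccr6* is at chr17:8236043-8257141 (plus strand), *Ccr7* at chr11:99144196-99155077 (minus strand) and *Cxcr3* at chrX:101731535-101734269 (minus strand). The gene spans of *Cx3cr1* and *Ccr9* overlap other genes on their own strand, so reads there could be divided between genes by the counting.

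Promoter sequences of RefSeq on GRCm38.p6 were found for 8 of the 9 genes, and the 250 bases before the start are shown for 4 receptors whose levels set the lymphoid types apart below. Each is written 5′ to 3′ on the strand of the gene. The start is that of the RefSeq entry and differs from the start of the gene span given above. All 4 windows reach into those gene spans, that of *Ccr2* for most of its length and that of *Cxcr3* for a large part. Capitals mark matches, on either strand, of 3 words chosen after other words had been tried: AGATAA (or TTATCT), bound by GATA factors, GTGTGA (or TCACAC), bound by T-box factors, and TGTGGT (or ACCACA), bound by RUNX factors. None of the capitals overlap.
Ccr2 (chr9:124101933-124102182, plus strand): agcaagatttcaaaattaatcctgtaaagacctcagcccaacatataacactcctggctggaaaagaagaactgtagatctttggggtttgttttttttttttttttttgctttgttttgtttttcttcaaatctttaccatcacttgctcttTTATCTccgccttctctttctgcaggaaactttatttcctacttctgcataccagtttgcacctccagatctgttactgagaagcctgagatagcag
Ccr8 (chr9:120091883-120092132, plus strand): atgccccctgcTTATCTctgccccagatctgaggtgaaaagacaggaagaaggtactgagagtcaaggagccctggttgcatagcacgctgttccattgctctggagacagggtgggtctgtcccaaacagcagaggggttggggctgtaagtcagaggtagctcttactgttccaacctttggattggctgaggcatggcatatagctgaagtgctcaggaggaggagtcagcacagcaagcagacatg
Cxcr3 (chrX:101734148-101734397, minus strand): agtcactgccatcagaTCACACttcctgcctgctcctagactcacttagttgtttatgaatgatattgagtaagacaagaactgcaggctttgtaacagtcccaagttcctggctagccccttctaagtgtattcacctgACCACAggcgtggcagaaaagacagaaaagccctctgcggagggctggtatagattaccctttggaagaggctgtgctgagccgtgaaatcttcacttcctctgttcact
Cxcr6 (chr9:123806227-123806476, plus strand): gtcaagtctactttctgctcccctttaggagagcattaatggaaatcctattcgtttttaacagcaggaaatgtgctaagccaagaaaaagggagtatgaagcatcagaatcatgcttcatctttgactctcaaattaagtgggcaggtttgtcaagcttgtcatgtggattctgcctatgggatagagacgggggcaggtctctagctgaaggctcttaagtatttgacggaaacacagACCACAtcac
The GATA word began 97 bases before the RefSeq start of *Ccr2* and 239 bases before that of *Ccr8*, and it was also found in 1 of both *Ccr6* windows, while 9.99% of 32851 promoter windows of this length held it. The T-box word was found only before *Cxcr3* among the 8 genes (12.3% of all windows). The RUNX word was found before *Cxcr3*, *Cxcr6*, *Ccr1* and *Cx3cr1* (14.0% of all windows). The GATA word of *Ccr2* and the RUNX word of *Cxcr3* lie inside the gene spans given above, not before them. A match describes the letters of a window and was not tested as a binding site.

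Across the 27 types each receptor had its own distribution, and nearly every leukocyte type had at least 1 receptor. At least 1 UMI of any of the 9 was found in 98.8% of gamma-delta T cells, 97.1% of migratory dendritic cells, 94.2% of classical monocytes, 94.1% of ILC1-type NK cells and 92.6% of memory-type CD8 T cells. The share was 45.8% in mature B cells and 27.5% in developing B cells. Plasma cells had a receptor UMI in only 23.4% of cells although their median depth was 20084 UMIs, and mast cells in 20.2%. Erythroid cells (6.14%) and fibroblasts (8.89%) give the level of background on the same count. Gamma-delta T cells carried on average 2.07 different receptors per cell and classical monocytes 1.85, against 0.520 in mature B cells and 0.0763 in erythroid cells.

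**Figure D1:**
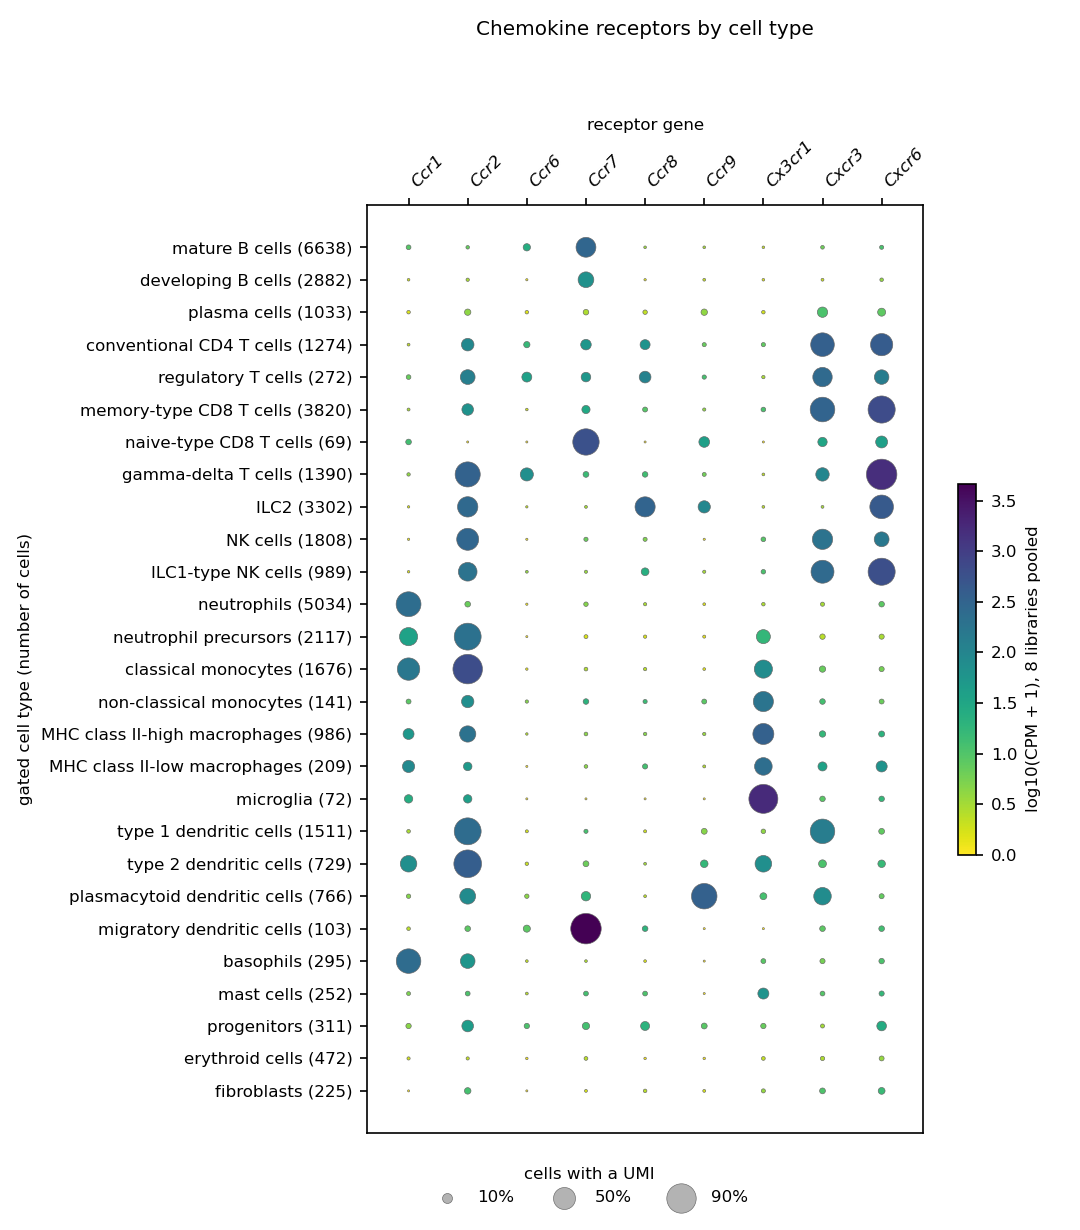
Each row is a gated cell type with its number of cells and each column a receptor gene, with the 8 libraries pooled. Dot area stands for the percentage of cells with at least 1 UMI and colour for log10(CPM + 1); the largest dots are *Cxcr6* in gamma-delta T cells (96.8% of cells) and *Ccr7* in migratory dendritic cells (97.1%), and erythroid cells and fibroblasts hold only small pale dots.

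The order of the types was tested between neighbours among the 5 highest covered types of each receptor, with an exact two-sided sign-flip permutation test of log2(CPM + 10) over libraries and Benjamini-Hochberg adjustment over all 36 pairs. In 14 pairs the adjusted p was under 0.05 and in 22 it was not. The 14 fell to 7 without cells of several hashtags, to 0 with cells called by the order-of-magnitude cutoff alone, and to 0 when any 1 library other than WT chronic colitis was left out (12 without that one), where fewer libraries raise the smallest possible p. The smallest p such a test can give is 0.00781 with 8 libraries, 0.0156 with 7 and 0.0312 with 6. Libraries of different treatment and genotype served as the replicates of a type.

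*Ccr1*, a receptor for the inflammatory chemokines Ccl3, Ccl5, Ccl6 and Ccl9, was a receptor of granulocytes and monocytes. In neutrophils it ranged over the 8 libraries from 172 through a median of 222 to 298 CPM, a mean of 231 ± 43.3 (SD, n = 8), with a UMI in 64.2% of cells. In classical monocytes it ranged from 58.8 through 110 to 365 CPM, a mean of 135 ± 100 (SD, n = 8). The neutrophil values lay close together, whereas the monocyte values were spread over more than the whole neutrophil range, with the WT control library highest. Neutrophils were above classical monocytes in 7 of 8 libraries by 0.94 ± 0.88 (SD) on the log2 scale, which did not pass the adjusted threshold (exact sign-flip permutation test, adjusted p = 0.0562). Basophils, covered in 3 libraries, reached 260 ± 50.8 CPM. Classical monocytes were above type 2 dendritic cells (69.7 ± 28.7 CPM, n = 7) in 7 of 7 libraries (exact permutation test, adjusted p = 0.0402), and the difference between those and MHC class II-high macrophages (62.9 ± 33.2 CPM, n = 7) did not pass (exact permutation test, adjusted p = 0.369).

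*Ccr2*, the receptor for Ccl2, Ccl7 and Ccl12 with which monocytes leave bone marrow, was found over the widest set of types. In classical monocytes it ranged from 546 through 675 to 722 CPM, a mean of 646 ± 71.9 (SD, n = 8), and 90.8% of the cells had a UMI. When each cell was thinned to 1000 UMIs, 46.4% still had one. Every library held its classical monocytes above every other covered type in *Ccr2*, and the step down to type 2 dendritic cells (377 ± 54.2 CPM) was 0.80 ± 0.11 on the log2 scale in 7 of 7 libraries (exact permutation test, adjusted p = 0.0402). The types below could not be put in order: gamma-delta T cells were at 348 ± 49.3, NK cells at 298 ± 47.0 and ILC2 at 265 ± 62.9 CPM (n = 8 each), with adjusted p of 0.363, 0.121 and 0.271 between successive neighbours from type 2 dendritic cells downward (exact permutation tests). Type 1 dendritic cells (237 ± 59.9 CPM), MHC class II-high macrophages (220 ± 79.4), neutrophil precursors (207 ± 30.6) and ILC1-type NK cells (200 ± 48.1) followed. The receptor was thus a feature of monocytes, dendritic cells, innate lymphocytes and cells gated as neutrophil precursors alike, while neutrophils (5.86 CPM, pooled) and mature B cells (6.29 CPM, pooled) had little.

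*Cx3cr1*, the receptor for the membrane-bound chemokine fractalkine, marked the macrophage side of the myeloid cells. The 72 microglia had 1730 CPM when pooled (exact Poisson 95% interval 1571 to 1902) and a UMI in 87.5% of cells. MHC class II-high macrophages ranged from 146 through 314 to 411 CPM, a mean of 314 ± 93.1 (SD, n = 7), with the WT control library lowest. They stood above classical monocytes (91.9 ± 38.2 CPM, n = 8) in 7 of 7 libraries, by 1.70 ± 0.34 on the log2 scale (exact permutation test, adjusted p = 0.0402). Classical monocytes and type 2 dendritic cells (62.9 ± 31.0 CPM, n = 7) did not differ past the threshold (exact permutation test, adjusted p = 0.147). Cells gated as non-classical monocytes, the patrolling subset, were covered in no library and had 177 CPM pooled over 141 cells. Their lymphocyte genes gave a free RNA estimate from 2.06% of UMIs in *App* food allergy to 50%, the highest value allowed, in WT acute colitis. Their level is therefore uncertain. Mast cells had 60.7 CPM pooled over 252 cells.

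*Ccr7*, which leads cells toward Ccl19 and Ccl21 in lymphoid organs, had its highest level in migratory dendritic cells. Pooled, these 103 cells had 4667 CPM and a UMI in 97.1% of cells, and the 8 libraries, with 4 to 22 such cells each, gave 3399 to 8006 CPM. Naive-type CD8 T cells (69 cells) had 572 CPM pooled, with a UMI in 72.5%. Among the covered types mature B cells led, with 156 as the lowest, 269 as the median and 429 as the highest of 8 libraries, a mean of 275 ± 80.9 (SD). The *App* food allergy library was lowest and the WT acute colitis library highest. Developing B cells were at 65.8 ± 19.1 CPM, 1.90 ± 0.36 lower on the log2 scale in 8 of 8 libraries (exact permutation test, adjusted p = 0.0352), and conventional CD4 T cells (63.0 ± 38.4 CPM) did not differ from them past the threshold (exact permutation test, adjusted p = 0.587).

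*Ccr6*, the receptor for Ccl20, had low levels throughout. Gamma-delta T cells ranged from 52.6 through 73.7 to 98.2 CPM, a mean of 73.4 ± 15.9 (SD, n = 8), with a UMI in 17.6% of cells. Mature B cells were at 24.2 ± 7.28 CPM (n = 8, a UMI in 5.15% of cells), lower in 8 of 8 libraries by 1.29 ± 0.44 on the log2 scale (exact permutation test, adjusted p = 0.0352). In conventional CD4 T cells the libraries ran from 3.06 to 46.9 CPM, but on only 65 UMIs over all 8 libraries. The WT control value of 7.03 CPM rested on 4 UMIs and the WT chronic colitis value of 46.9 on 10. These were too few for the comparisons of groups of libraries below. Regulatory T cells, covered in 1 library, had 37.2 CPM pooled.

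*Ccr8*, the receptor for Ccl1, was highest among the covered types in group 2 innate lymphoid cells (ILC2). Their values ranged from 189 through 292 to 477 CPM, a mean of 301 ± 92.5 (SD, n = 8), with a UMI in 42.0% of cells. Conventional CD4 T cells, next in order, were at 59.7 ± 28.9 CPM, lower in 8 of 8 libraries by 2.22 ± 0.71 on the log2 scale (exact permutation test, adjusted p = 0.0352), and no library overlapped. The order went on past the threshold to ILC1-type NK cells (20.8 ± 7.06 CPM) and gamma-delta T cells (11.8 ± 4.40 CPM), with exact permutation tests at adjusted p of 0.0402 and 0.0352. Regulatory T cells had 110 CPM pooled over 272 cells. Within the libraries, some hashtag groups of ILC2 lay below the lowest library value of 189 CPM, as given below.

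*Ccr9*, the receptor for the gut and thymus chemokine Ccl25, was found in plasmacytoid dendritic cells and ILC2. Plasmacytoid dendritic cells ranged from 215 through 353 to 412 CPM over the 6 libraries that covered them, a mean of 336 ± 76.7 (SD), with a UMI in 67.6% of cells. ILC2 ranged from 55.0 through 97.3 to 114 CPM, a mean of 92.3 ± 20.1 (SD, n = 8). Plasmacytoid dendritic cells were higher in 6 of 6 libraries by 1.81 ± 0.61 on the log2 scale, at the smallest p that 6 libraries allow, and the exact permutation test did not pass after adjustment (adjusted p = 0.0625). ILC2 were above type 2 dendritic cells in 7 of 7 libraries (exact permutation test, adjusted p = 0.0402).

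*Cxcr3*, the receptor for the interferon-induced Cxcl9 and Cxcl10, was shared by T cells, NK cells and type 1 dendritic cells. Conventional CD4 T cells ranged from 225 through 349 to 424 CPM, a mean of 339 ± 66.2, and memory-type CD8 T cells from 250 through 324 to 358 CPM, a mean of 308 ± 39.0 (SD, n = 8 each). These overlapped over most of their ranges, and their difference of 0.12 ± 0.27 on the log2 scale did not pass (exact permutation test, adjusted p = 0.291). ILC1-type NK cells were at 258 ± 31.9 CPM, above other NK cells (181 ± 28.0 CPM) in 8 of 8 libraries (exact permutation test, adjusted p = 0.0352). Type 1 dendritic cells followed at 133 ± 16.3 CPM, below NK cells in 8 of 8 libraries (exact permutation test, adjusted p = 0.0352), with a UMI in 62.5% of these deeply covered cells (median 9669 UMIs) and in 11.5% when thinned to 1000 UMIs.

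*Cxcr6*, the receptor for Cxcl16 and a feature of resident lymphocytes, was highest in gamma-delta T cells, which ranged from 1308 through 1522 to 1640 CPM, a mean of 1516 ± 116 (SD, n = 8). A UMI was found in 96.8% of these cells and still in 75.3% after thinning to 1000 UMIs. Memory-type CD8 T cells were at 623 ± 134 CPM (434 to 769), lower in 8 of 8 libraries by 1.30 ± 0.32 on the log2 scale with no overlap (exact permutation test, adjusted p = 0.0352). ILC1-type NK cells (577 ± 108 CPM), ILC2 (438 ± 83.8) and conventional CD4 T cells (404 ± 95.1) followed. None of the 3 steps between these neighbours passed the threshold, with adjusted p of 0.164, 0.0625 and 0.528 (exact permutation tests).

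**Figure D2:**
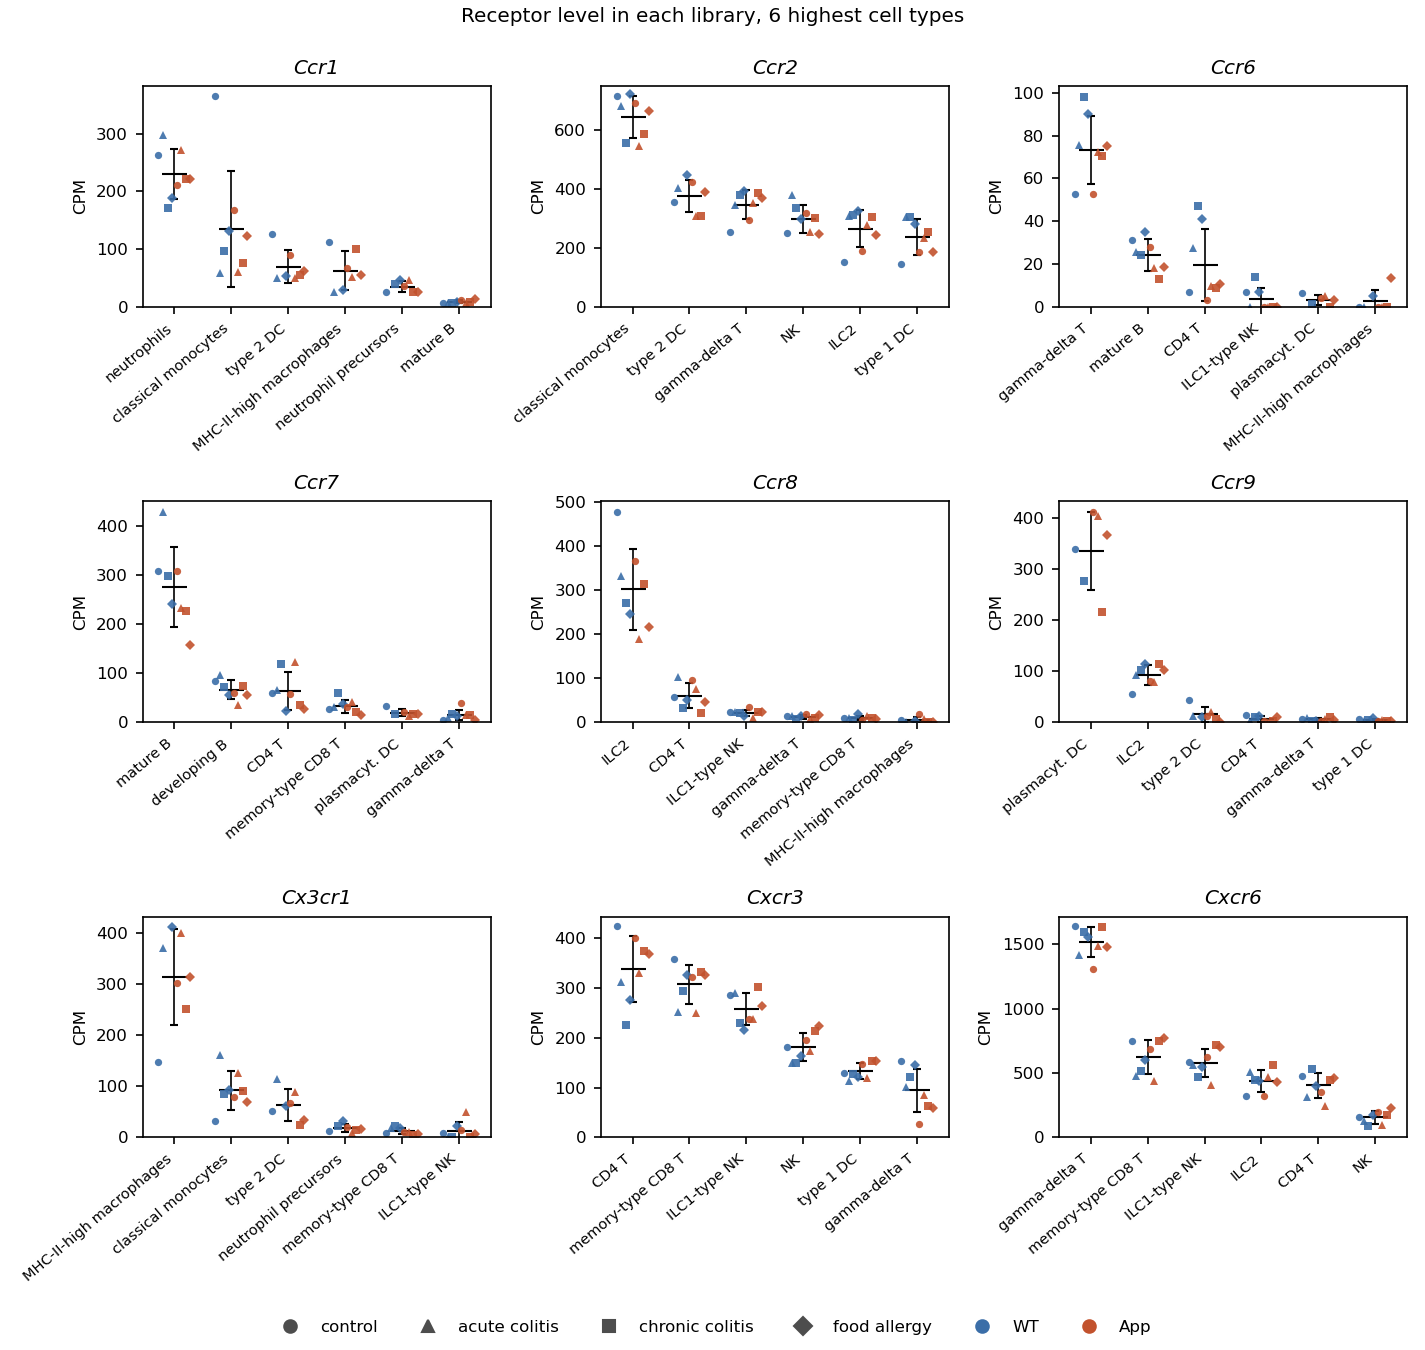
Each panel is 1 receptor with CPM on the vertical axis and its 6 highest covered types on the horizontal axis; every point is a library, with marker shape for treatment, blue for WT and red for *App*, and the bars give mean ± SD. *Cxcr6* in gamma-delta T cells (1308 to 1640 CPM) and *Ccr2* in classical monocytes (546 to 722 CPM) stand clear of the next type in every library, while *Ccr1* in classical monocytes is spread from 58.8 to 365 CPM.

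Related types differed in their receptors in nearly every library. From neutrophil precursors to neutrophils, pooled *Ccr2* went from 202 to 5.86 CPM and its share of cells from 75.2% to 2.92%, lower in 7 of 7 libraries, while *Ccr1* went from 34.6 to 232 CPM, higher in 7 of 7. Cells with precursor markers and few neutrophil markers were placed among the precursors even where they also passed monocyte markers. Precursors of monocytes were therefore not kept apart there, and 20.1% of the precursors had a UMI of *Cx3cr1*, against 0.874% of neutrophils. From developing to mature B cells *Ccr7* was 4.38-fold higher and *Ccr6* went from 0.249 to 23.3 CPM, both in 8 of 8 libraries. Plasma cells, the secreting end of this lineage, had 1.85 CPM of *Ccr7* and 0.585 CPM of *Ccr6*, lower than mature B cells in 8 of 8. These contrasts between stages were not put to a test and are given by their counts of libraries.

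The myeloid and dendritic branches were set apart in the same way. From classical monocytes to MHC class II-high macrophages *Ccr2* went from 659 to 193 CPM, lower in 7 of 7 libraries, and *Cx3cr1* from 79.0 to 345 CPM, higher in 7 of 7. Type 1 and type 2 dendritic cells, which specialise in cross-presentation and in helper T cell responses, shared *Ccr2* (246 and 385 CPM, higher in type 2 cells in 7 of 7 libraries). *Cxcr3* was at 133 CPM in type 1 cells and 10.0 in type 2 cells, higher in type 1 cells in 7 of 7. *Ccr1* was at 1.99 and 70.6 CPM and *Cx3cr1* at 3.15 and 70.5 CPM in the same order, higher in type 2 cells in 7 of 7. A single receptor, *Cxcr3*, therefore ran against the other 3 between the dendritic subsets. Migratory dendritic cells, pooled, had 7.31 CPM of *Ccr2* beside their high *Ccr7*, and 0 of 103 cells had a UMI of *Cx3cr1*, which allows a share of cells with a UMI, not of expressing cells, of up to 2.91%.

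Among lymphocytes, ILC1-type NK cells had more *Cxcr6* than other NK cells (603 against 159 CPM), more *Cxcr3* (262 against 185) and more *Ccr8* (22.1 against 4.17), each in 8 of 8 libraries. *Ccr2* went the other way, with 187 against 293 CPM, also in 8 of 8. Naive-type CD8 T cells, few as they were, had 572 CPM of *Ccr7* against 28.3 in memory-type cells, 31.8 CPM of *Cxcr3* against 317 and 39.7 CPM of *Cxcr6* against 670. None of the 69 naive-type cells had a UMI of *Ccr2*, which allows a share of cells with a UMI of up to 4.35% at their depth and sets no limit on cells that express the gene.

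Whether 2 receptors sat in the same cells was read from the share of cells with UMIs of both, divided by the product of their shares, in 61 combinations of type and pair. The ratio was under 1 in 16 of the 61. In NK cells *Ccr2* and *Cxcr6* were found together in 6.14% of cells against a product of 11.3%, a ratio of 0.541 (0.483 when thinned to 1000 UMIs), and the ratio was above 1 in 0 of 8 libraries. In ILC1-type NK cells the same pair had a ratio of 0.884 (0.839 thinned), above 1 in 0 of 8. In conventional CD4 T cells *Ccr7* and *Cxcr6* had a ratio of 0.478, above 1 in 1 of 8 libraries. In gamma-delta T cells *Ccr6* and *Cxcr3* were both found in only 19 of 1390 cells, a ratio of 0.423 that was above 1 in 0 of 8 libraries and that stood at 0.730 after thinning. In these types the pairs were thus found together less often than the product of their shares.

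Other pairs were found together more often than the product. *Ccr2* and *Cxcr6* in conventional CD4 T cells had a ratio of 1.41 (1.65 thinned), and *Cxcr3* and *Cxcr6* in NK cells 1.32 (1.60 thinned), both above 1 in 8 of 8 libraries. *Ccr1* and *Ccr2* in neutrophil precursors had 1.26, above 1 in 7 of 7. The same 2 genes, *Ccr2* and *Cxcr6*, were thus under 1 in NK cells and above 1 in CD4 T cells and ILC2 (1.14, above 1 in 8 of 8). Cells of a type differ in depth, and no test was made over cells.

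**Figure D3:**
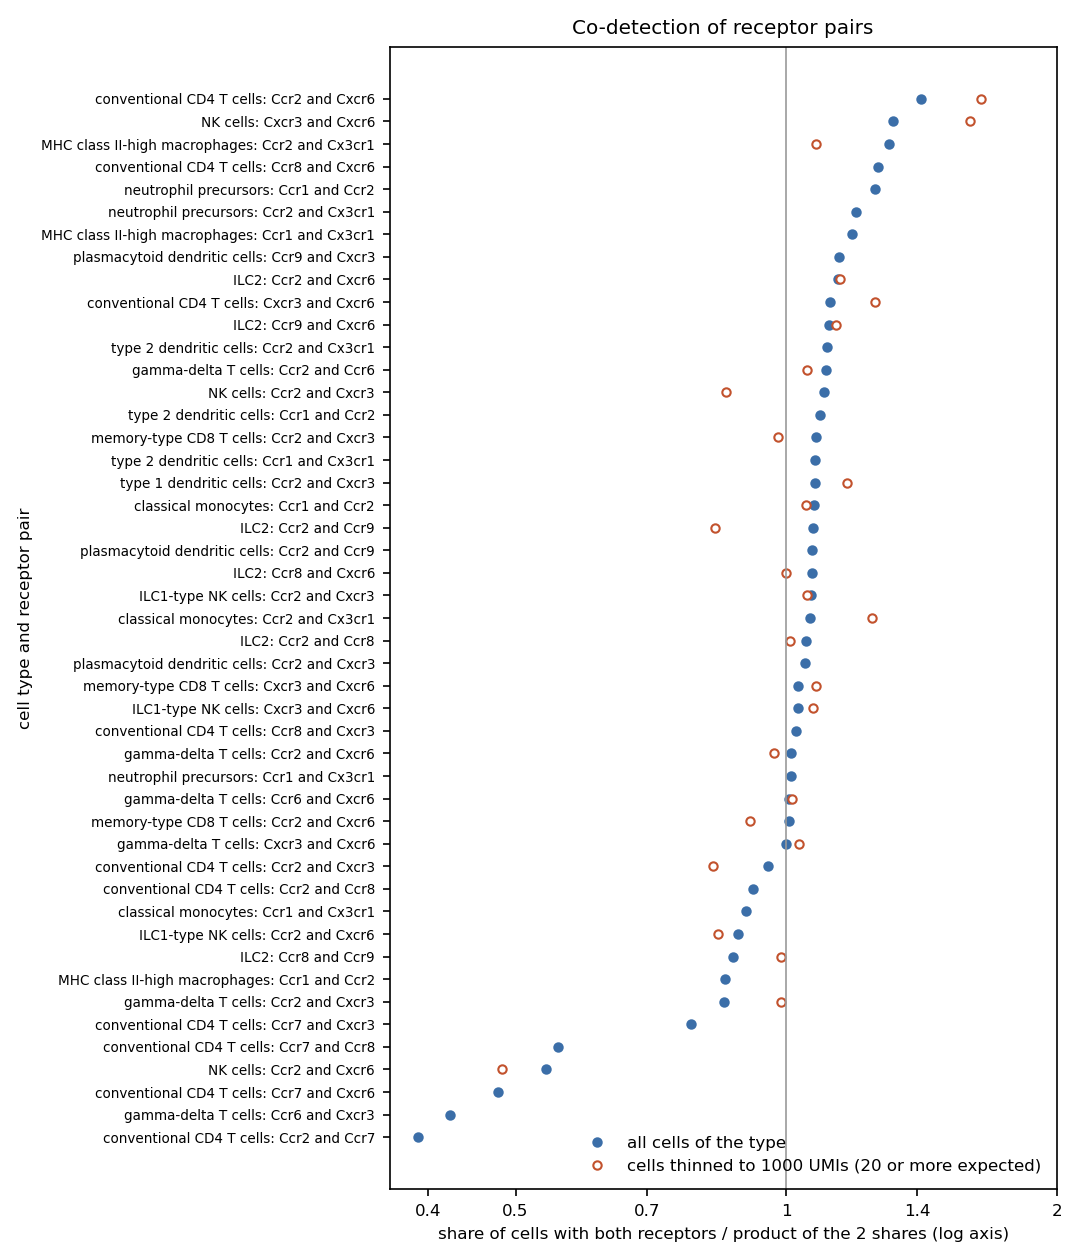
Rows are cell types with a receptor pair, and the horizontal log axis is the share of cells with both receptors divided by the product of their shares, over all 8 libraries. Filled points use all cells and open points cells thinned to 1000 UMIs where 20 or more were expected; *Ccr2* with *Cxcr6* lies at 1.41 in conventional CD4 T cells and at 0.541 in NK cells.

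Over all kept cells of a library, whatever their type, the share with a receptor UMI moved with the make-up of the library. *Ccr1* was found in 5.56% of WT acute colitis cells and 23.2% of *App* acute colitis cells, libraries in which 193 and 1185 cells were neutrophils. *Cxcr6* ran from 15.7% in *App* acute colitis to 33.1% in *App* food allergy, and *Ccr7* from 6.75% in WT food allergy to 21.4% in WT acute colitis. For this reason treatments were compared only within a type.

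The control libraries were compared with the treated ones by setting the 6 libraries from mice with colitis or allergy against both control libraries, in the 37 combinations of receptor and type with enough UMIs. This contrast was chosen after the values had been seen. The exact two-sided permutation test can give no p below 0.0357; 7 combinations reached it, and none passed after adjustment (lowest adjusted p = 0.189). The libraries did not overlap in 5 combinations that were higher in treated libraries and 3 that were lower. The share of all genes that did not overlap is given below only for the types that held these combinations. It is not given over all types tested, so the total was not read as a result about the receptors.

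ILC2 held 3 of these 8. Their *Ccr2* was 153 CPM in WT control, then 308, 311 and 326 in WT acute colitis, chronic colitis and food allergy, and 191 in *App* control, then 278, 305 and 245 in the *App* libraries in the same order. *Cxcr6* was 324, then 511, 444 and 441, and in the *App* libraries 318, then 471, 562 and 432. *Ccr8* ran the opposite way, at 477, then 331, 270 and 246, and in the *App* libraries 365, then 189, 313 and 215. Both control libraries were thus lowest for *Ccr2* and *Cxcr6* and highest for *Ccr8*. NK cell markers summed to 19.5 to 34.8 CPM in the ILC2 of the controls and 3.13 to 18.1 in the treated libraries, with 0 of 9 at 0, and their part was not tested. Taken singly, 1 of the 9 markers was higher in both controls than in every treated library. With the cutoff alone for calling cells, the *Ccr8* difference was 0.11 in place of the -0.68 given next. Treated libraries averaged 295 ± 29.0 against 172 ± 27.0 CPM of *Ccr2* (a log2 difference of 0.75), 476 ± 50.7 against 321 ± 3.71 of *Cxcr6* (0.55) and 261 ± 55.2 against 421 ± 79.0 of *Ccr8* (-0.68), each at an exact permutation p of 0.0357 with n of 6 and 2. In ILC2, however, 18.3% of all genes tested had treated and control libraries that did not overlap, 14.1% lower and 4.2% higher, and the median gene differed by -0.09, beside 3 of the 4 receptors tested there.

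Gamma-delta T cells had 2 more. *Ccr2* was 253 CPM in WT control, then 346, 379 and 394 in WT acute colitis, chronic colitis and food allergy, and 296 in *App* control, then 353, 388 and 370. *Ccr6* was 52.6, then 75.6, 98.2 and 90.1, and in the *App* libraries 52.7, then 72.5, 70.3 and 75.0. All 6 treated libraries lay above both controls for both genes, with means of 372 ± 19.1 against 274 ± 30.3 CPM (log2 difference 0.43) and 80.3 ± 11.2 against 52.7 ± 0.103 CPM (0.52). Of all genes in these cells 15.3% did not overlap (7.29% higher), beside 2 of 4 receptors. Neutrophil markers summed to 39.7 to 61.5 CPM in the gamma-delta T cells of the controls and 70.3 to 760 in the treated libraries, with 1 of the 13 markers at 0, and their part in the result was not tested. Taken singly, 1 of the 13 markers was lower in both controls than in every treated library.

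In type 1 dendritic cells *Ccr2* was 145 CPM in WT control, then 307, 304 and 283, and 186 in *App* control, then 233, 253 and 188 in the *App* libraries. The *App* control and *App* food allergy values were nearly equal, and the WT control was the lowest of all. The means were 261 ± 46.2 against 166 ± 29.0 CPM (log2 difference 0.62), and 13.4% of all genes in these cells did not overlap (4.3% higher), beside 1 of 3 receptors. Classical monocyte markers summed to 422 to 746 CPM in the controls and 126 to 331 in the treated libraries, with 0 of the 7 markers at 0, and their part was not tested. Taken singly, 1 of the 7 markers was higher in both controls than in every treated library.

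Classical monocytes had the largest of these differences, in *Ccr1*. It was 365 CPM in WT control, then 58.8, 96.0 and 131 in WT acute colitis, chronic colitis and food allergy, and 168 in *App* control, then 60.6, 75.8 and 123. Each treated library lay below both controls, at 91.0 ± 31.3 against 267 ± 139 CPM (log2 difference -1.41), while 8.67% of all genes in classical monocytes did not overlap (4.19% lower), beside 1 of 3 receptors. Neutrophil markers, whose cells have *Ccr1*, summed to 1003 to 1206 CPM in the monocytes of the controls and 101 to 709 in the treated libraries, with 0 of 13 at 0, and their part was not tested. Taken singly, 1 of the 13 markers was higher in both controls than in every treated library. *Cxcr3* in conventional CD4 T cells was also lower in every treated library, at 314 ± 56.7 against 412 ± 16.6 CPM (log2 difference -0.40, exact permutation p = 0.107), where 5.53% of genes did not overlap (4.28% lower), beside 1 of 5 receptors.

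A set of 10 immediate-early genes, which respond to handling and stimulation of cells, divided the hashtag groups. In T cells their sum was 580 to 1440 CPM in 14 hashtag groups and 2844 to 5621 CPM in the other 16, and the first set is called low and the second high. In the high set, with 4 control and 12 treated groups, ILC2 had 433 to 701 CPM of *Ccr8* in the controls against 156 to 405 when treated, 104 to 280 against 264 to 395 of *Ccr2* and 266 to 409 against 440 to 678 of *Cxcr6*. *Ccr1* in classical monocytes was 212 to 465 against 34.3 to 170 CPM, and *Ccr6* in gamma-delta T cells 41.7 to 61.6 against 65.1 to 143. These combinations are among those whose libraries did not overlap, and their control groups are parts of both control libraries, so the ranges restate the library values. The share of all genes whose hashtag groups were apart in this way was not computed. In the low set, with 3 control and 6 treated groups of ILC2, *Ccr2* was 159 to 251 CPM in controls against 48.1 to 201, *Ccr8* 57.4 to 71.1 against 34.5 to 217 and *Cxcr6* 191 to 431 against 62.1 to 384, so all 3 overlapped. *Ccr6* of gamma-delta T cells rested on 3 UMIs in the 1 low control group, against 15.9 to 76.5 CPM in 5 treated groups, a log2 difference of -0.24 opposite to that of the libraries. On the mean of log2 values the low groups ran opposite to the libraries for *Ccr2* (-0.71), *Ccr8* (0.77) and *Cxcr6* (-0.38), and the part of this set in the result was not tested. *Ccr1* of classical monocytes had a single group of each kind in the low set, at 37.8 and 44.5 CPM.

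**Figure D4:**
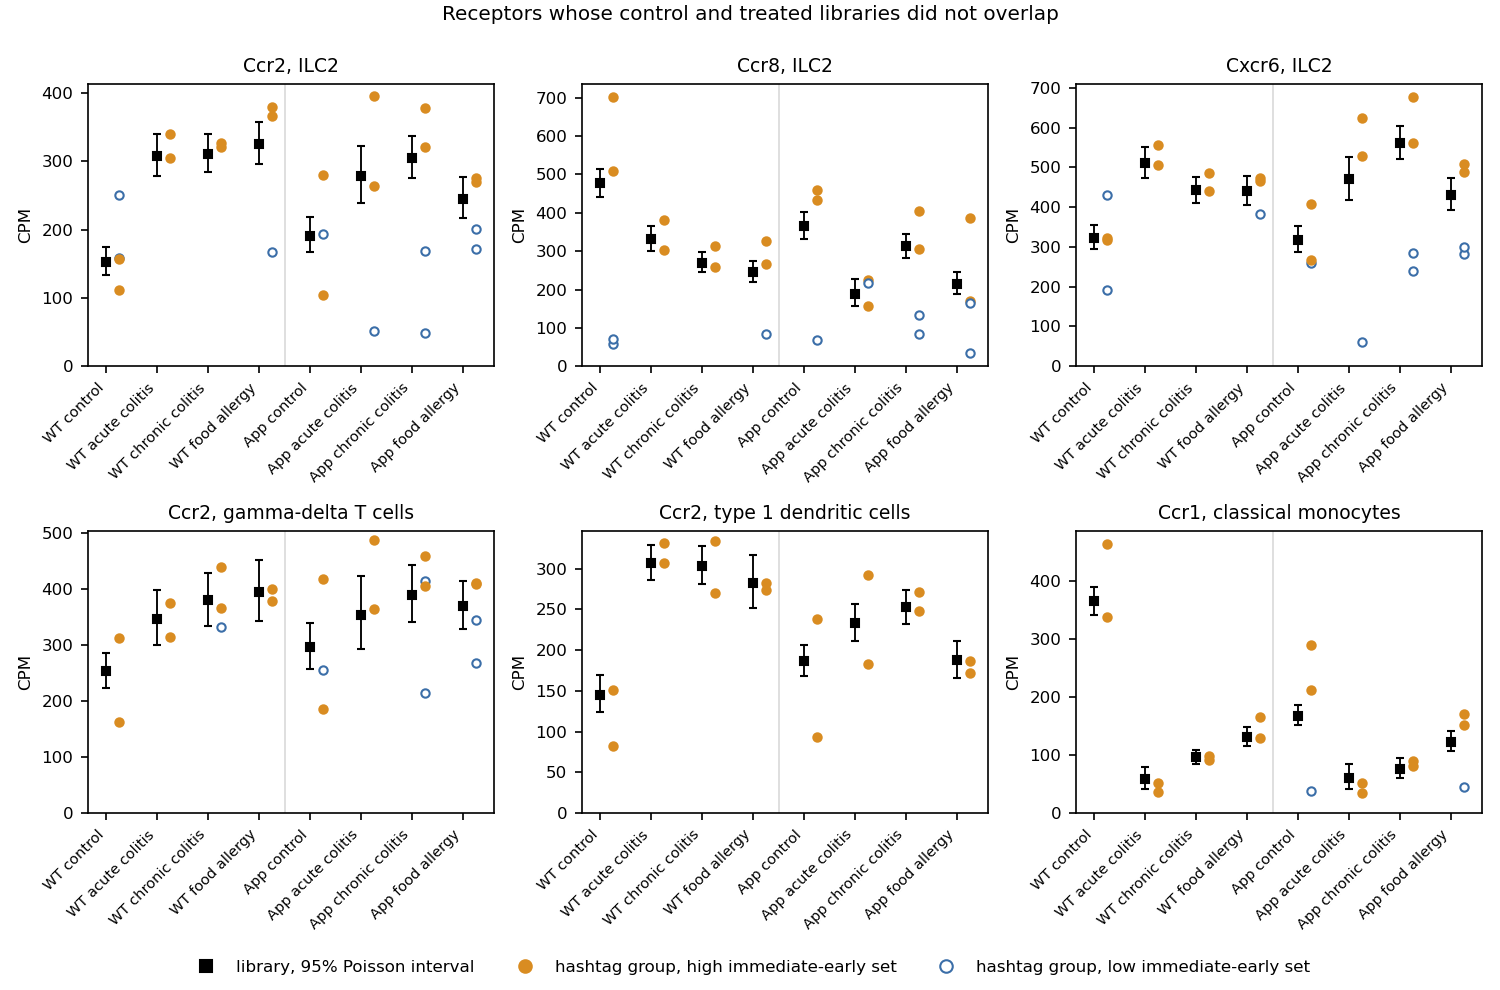
Each panel gives 1 receptor in 1 cell type, with CPM on the vertical axis and the 4 WT and 4 *App* libraries on the horizontal axis. Black squares are libraries with exact 95% Poisson intervals, filled orange circles hashtag groups of the high immediate-early set and open blue circles those of the low set; in ILC2 the open *Ccr8* circles all lie at or below 217 CPM, whereas the filled circles of the controls lie from 433 to 701 CPM.

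Genotypes were compared as 4 *App* against 4 WT libraries, the only contrast of the design with several libraries on both sides, in the same 37 combinations. The smallest exact two-sided permutation p is 0.0286; 1 combination reached it and none passed after adjustment (lowest adjusted p = 0.755). It was *Cxcr3* in gamma-delta T cells, at 153, 102, 120 and 145 CPM in the WT control, acute, chronic and allergy libraries and at 26.4, 84.6, 63.6 and 58.4 CPM in the *App* libraries in the same order. Every *App* library lay below every WT library, with means of 58.2 ± 24.1 and 130 ± 23.2 CPM and a log2 difference of -1.10, while 3.92% of all genes in these cells did not overlap (2.82% lower). NK cells went the other way, with 202 ± 22.3 CPM of *Cxcr3* in *App* and 161 ± 14.6 in WT libraries, higher in *App* in 4 of 4 treatments (exact permutation p = 0.0571). In mature B cells *Ccr7* was 231 ± 62.1 and 319 ± 79.0 CPM and *Ccr6* 19.5 ± 6.26 and 29.0 ± 4.92 CPM in *App* and WT libraries, lower in *App* in 4 of 4 treatments for both (exact permutation p = 0.0857 each).

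Single treated libraries were set beside the control of their genotype as differences of log2(CPM + 10), with no test, and called past 2-fold where both libraries together had at least 20 UMIs. In *App* mice 7 of 70 combinations of receptor and type were past 2-fold in acute colitis (10.0%, against 1.99% of all genes over the same types), 5 of 63 in chronic colitis (7.94% against 1.31%) and 2 of 66 in food allergy (3.03% against 0.987%). In WT mice 8 of 51 were past it in acute colitis (15.7% against 3.5%), 5 of 57 in chronic colitis (8.77% against 3.19%) and 11 of 63 in food allergy (17.5% against 2.33%). The *App* control library differed from the WT control library past 2-fold in 9 of 66 (13.6% against 2.18%), so the controls were as far apart as many treated libraries were from their controls.

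*Ccr1* of classical monocytes was past 2-fold lower in 5 of the 6 treated libraries, with *App* food allergy as the exception, and *App* control was itself lower than WT control. In WT acute colitis it was 0.161-fold the control level (exact 95% interval for counting error 0.114 to 0.221), from 933 UMIs in the control and 40 in the treated library. *Cx3cr1* of the same cells was 32.9 CPM in WT control, then 162, 85.3 and 92.0 in the treated WT libraries, all past 2-fold, but 78.9 in *App* control, and no treated *App* library was past 2-fold of that. MHC class II-high macrophages showed the same pattern of a low WT control, with 146 CPM of *Cx3cr1* against 370 in WT acute colitis and 411 in WT food allergy, and 303 in *App* control. *Ccr2* in conventional CD4 T cells was 66.8 CPM in WT control, then 69.8, 221 and 222 in the treated WT libraries, and 65.7 in *App* control, then 42.9, 91.3 and 62.3, so that treated and control libraries overlapped (exact permutation p = 0.643). *Ccr8* in the same type was 94.7 CPM in *App* control and 21.3 in *App* chronic colitis. *Cxcr3* of gamma-delta T cells was 0.173-fold in *App* control against WT control (0.0996 to 0.282), and 3.21-fold (1.71 to 6.16) in *App* acute colitis against *App* control.

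Hashtag groups gave a spread within *App* libraries, although their mice are not known. The groups compared came from 1 treated and 1 control library, so the p values below describe tags within these libraries. They cannot tell a treatment from a library. Tags of a library also differed in their immediate-early sum in T cells. It ran from 640 to 3279 CPM in *App* control and from 596 to 3335 CPM in *App* food allergy, which the tests did not take into account. In 26 tests of a receptor in its leading type, treated against control groups, the lowest exact permutation p was 0.0286, for *Ccr7* in mature B cells of *App* food allergy (154 ± 16.4 CPM over 4 groups, 134 to 174) against *App* control (309 ± 53.9 CPM over 4 groups, 239 to 368). The groups did not overlap, but the share of all genes whose hashtag groups were apart in this way was not computed. No exact permutation test passed after adjustment (lowest adjusted p = 0.743).

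The genes whose pattern over the 27 types was most like each receptor were found by Pearson's r of mean log2(CPM + 10), over 11322 genes and as a description without a test, since the types share libraries and depth. *Cxcr6* was most like *Zap70* (r = 0.947), a T cell receptor kinase, and *Pdcd1* (0.947), the inhibitory receptor PD-1. Among the genes most like *Cx3cr1* were *Trem2* (0.930), a lipid-sensing receptor of microglia and macrophages, and *Csf1r* (0.925), the receptor for macrophage colony-stimulating factor. *Ccr8* was most like *Tktl1* (0.909) and *Il2* (0.874). *Cxcr3* followed *Tigit* (0.852) and *Fasl* (0.834), *Ccr6* *Il17re* (0.803), *Ccr2* *Prkx* (0.796) and *Ahr* (0.740), *Ccr1* *Igsf6* (0.858), *Ccr7* *Extl1* (0.822) and *Ccr9* *Gpr25* (0.807). The closest genes of *Cx3cr1*, *Cxcr6* and *Ccr8* reached r above those of the other 6.

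Of 42 further genes of the chemokine system, 41 were in the matrices (not *Cxcl11*) and 35 reached 20 CPM in some type: 15 of 17 ligands, 7 of 9 other receptors, 3 of 5 atypical receptors and 10 of 10 signalling genes. Ligands of the 9 receptors were made by some of the same cells. Pooled over libraries, *Ccl2* was 3783 CPM in mast cells and 1229 in MHC class II-low macrophages, *Ccl7* 2218 in mast cells and *Ccl12* 817 in MHC class II-low macrophages, ligands of Ccr2, and *Ccl8* was 1127 in MHC class II-low macrophages. *Ccl5*, a ligand of Ccr1, reached 11355 CPM in memory-type CD8 T cells, and *Ccl3* 704, *Ccl6* 1907 and *Ccl9* 350 in basophils. The Ccr7 ligand *Ccl19* (514 CPM) and the Cx3cr1 ligand *Cx3cl1* (144 CPM) were highest in fibroblasts, *Cxcl16* in migratory dendritic cells (896 CPM), *Cxcl9* in type 1 dendritic cells (93.7) and *Ccl1* in conventional CD4 T cells (166, from 1.57% of cells). *Ccl20*, the ligand of Ccr6, and *Ccl21a*, a ligand of Ccr7, had 1 UMI each in all kept cells. *Ccl25*, the ligand of Ccr9, reached 20.1 CPM in microglia, but from only 5 UMIs there, out of 1723 in all kept cells. Of the other receptors, *Cxcr2*, which draws neutrophils to Cxcl1 and Cxcl2, was 297 CPM in neutrophils.

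In *App* acute colitis against *App* control, 15 of 87 combinations of ligand and type were past 2-fold higher and 17 lower, against 1 of 30 for the other receptors (lower), 1 of 16 for the atypical receptors (lower) and 5 of 158 for signalling genes (1 higher and 4 lower). Of all genes over the same types 1.99% were past 2-fold. *Cxcl9* in type 1 dendritic cells was 5.62 CPM in *App* control and 136 in *App* acute colitis, and 117 and 170 in the WT libraries. *Ccl1* in ILC2 was 39.0 and 124 CPM, and 49.4 and 183 in WT. *Ccl6* in MHC class II-high macrophages was 1381 and 320 CPM, and 1671 and 487 in WT, and *Ccl9* there 328 and 104, and 323 and 104 in WT. *Cxcl10* in ILC1-type NK cells was 8.01 and 99.4 CPM and 210 and 27.2 in WT, from 2.63% of these cells over all libraries. These values rest on 1 library per condition, with no replicate check.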

How the data were processed

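CD45.2-positive brain cells were measured with a droplet 5′ assay in 8 libraries, 1 per condition. The deposited matrices hold whole-number UMI counts per gene and barcode for all barcodes, which the authors made with Cell Ranger, version 6.1.2 on mm10 per the submitters' processing notes, while the matrix headers name another version. No normalisation had been applied to the deposited counts, and the 8 matrices held 0 columns of other samples.

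Cells were called by an order-of-magnitude cutoff (expected cells 3000, divisor 10) plus a test against the ambient profile (barcode ranks 45000 to 90000, at least 500 UMIs, 1000 simulations, false discovery rate 0.01), and kept if 200 genes or more were found and no more than 5% of UMIs were mitochondrial. A lineage needed at least 3 markers, but progenitors and part of the developing B cells were taken with fewer. Subsets of T cells and NK cells were split by fewer markers of their own lists. Cells passing markers of different lineages without a lead of 1.5 were set aside as possible doublets. The automatic cutoff of Scrublet marked too few cells, so its highest scores were left out in an alternative only. UMIs were summed per type and library, given as CPM with exact Poisson intervals, and shares with exact Clopper-Pearson intervals (95%), which cover counting error only. A count of 0 was bounded by 3 counts. Levels of different receptors were not compared with each other.

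Types were compared by exact sign-flip permutation tests and groups of libraries by exact permutation tests, two-sided, on log2(CPM + 10), with Benjamini-Hochberg adjustment within each family. Functions were tested on simulated data. The genes most like a receptor were the 3 with the highest correlation over types among genes with at least 20 CPM in some type, gate markers left out. Some genes are not reported here. The receptors, the marker and gene lists and the tests were chosen with earlier results of these data known. The contrast of treated with control libraries, the immediate-early sets and the use of the highest Scrublet scores were added after seeing the data. Alternatives covered cell calling, gates, clusters, doublets, ambient UMIs, depth, pseudocount, thresholds and each library left out. Python 3.11.15, scanpy 1.11.5, statsmodels 0.14.6, scipy 1.17.1, leidenalg 0.10.2, matplotlib 3.10.9, pandas 2.3.3 and numpy 2.4.6 were used.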

Additional observations from a re-analysis of the deposited data

Results flagged for a closer look

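In 74 groups of 4 libraries of a genotype, 1 library stood apart from the other 3 in 4 groups, and chance alone sets apart about 1 in 20. *Ccr2* was 153 CPM in ILC2 of the WT control library against 308 to 326 in the other WT libraries, and 145 CPM in its type 1 dendritic cells against 283 to 307. *Cxcr3* was 250 CPM in memory-type CD8 T cells of the *App* acute colitis library against 322 to 332 in the other *App* libraries, and 119 CPM in its type 1 dendritic cells against 148 to 154.

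In 1 of 154 combinations of receptor, type and treatment the genotypes were past 2-fold in opposite directions. *Ccr7* in type 1 dendritic cells of food allergy differed from control by 1.41 on the log2 scale in *App* and by -2.02 in WT libraries, and the difference between these was not tested. These values rest on 2 cells with a UMI in each *App* library, 4 in WT control and 0 in WT food allergy, and over all libraries 1.39% of type 1 dendritic cells had a UMI, within the range read as background. The share of all genes with opposite calls was not computed.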

How the results depend on the processing

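No paired analysis was possible because each condition had 1 library and so no replicate numbers to pair, other than WT with *App* libraries by treatment. Paired in that way, the 8 genotype differences recomputed could not change direction, as the mean of the pairs equals the difference of the means. None could pass either, since 4 pairs allow no exact sign-flip permutation p below 0.125. The pairing is therefore no check of these differences. Of the first-to-second steps, *Ccr1* (0.94) passed the threshold as a mean over cells (1.30) and with one more marker per gate (0.97), and *Ccr9* (1.81) as a mean over cells (1.98). Calls were lost for *Ccr2* with one more marker (0.67), the order-of-magnitude cutoff alone (0.80) and without cells of several hashtags (0.80), for *Cx3cr1* without those cells (1.80), and with that cutoff alone for *Ccr6* (1.36), *Ccr7* (1.75) and *Cxcr6* (1.66). *Cxcr3* (0.12, not called) was -0.050 with clusters in place of gates. Leaving out each library in turn gave 0.76 to 0.82 for *Ccr2*, 1.22 to 1.39 for *Ccr6*, 1.82 to 1.98 for *Ccr7*, 2.06 to 2.36 for *Ccr8*, 1.64 to 1.79 for *Cx3cr1* and 1.23 to 1.35 for *Cxcr6*, without a call where fewer libraries raise the smallest possible p. The 14 neighbouring pairs past the threshold became 23 as means over cells, 0 with the cutoff alone, 7 without cells of several hashtags, and 0 (without WT control, for example) to 12 (without WT chronic colitis) with a library left out. With at least 50 UMIs, the receptors past 2-fold were 2 in *App* acute colitis, 0 in *App* food allergy, 7 in WT food allergy and 4 between the controls. Past 1.5-fold they were 22, 18 and 10 in *App* acute colitis, chronic colitis and food allergy, 18, 20 and 27 in the same WT libraries, and 14 between the controls. The share of all genes past these 2 alternative thresholds is not given here, so these counts were not read as a result about the receptors. *Ccr1* in neutrophils turned to -0.059 in *App* acute colitis as a mean over hashtag groups. Its *App* to WT difference (0.04) turned to -0.25 over hashtag groups and -0.019 with ambient UMIs subtracted, and ran from -0.087 to 0.17 with a library left out. Treated against control, hashtag groups of the low immediate-early set gave -0.24 for *Ccr6* in gamma-delta T cells, and -0.71, 0.77 and -0.38 for *Ccr2*, *Ccr8* and *Cxcr6* in ILC2, and *Ccr8* in ILC2 was 0.11 with the cutoff alone. The cause of these changes was not tested. Single libraries and low receptor counts per type limit every treatment value.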

Other observations

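Cells of several hashtags made up 335 to 822 cells of a library. ILC2 of the low immediate-early hashtag groups had a median of 69.3 CPM of *Ccr8* in 3 control groups and 109 CPM in 6 treated groups, against 484 CPM in 4 control groups and 305 CPM in 12 treated groups of the high set. *Ccr10*, a receptor of antibody-secreting cells, was 29.3 CPM in plasma cells with a UMI in 25.3% of them, and *Ackr1*, the erythrocyte chemokine receptor, was 93.3 CPM in erythroid cells.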
